A study of Mus musculus with 16 samples.

Results

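Metallothionein and acute phase genes were examined in livers and embryonic stem (ES) cells of the mouse. The group held 8 genes, Mt1, Mt2, Saa2, Serpina3n, Itih3, Masp1, Hp and Orm1, taken as every probe set of the array that is annotated to 1 of these symbols and no other. They were read by 9 probe sets, 2 of them for Saa2, out of 8252 genes that have a probe set of their own. The study compared mice and ES lines carrying 1 mutated copy of Abca1, the cellular cholesterol exporter, or of Cdk4, a cell cycle kinase, with controls that carry none. Liver made up 2 groups of 2 arrays, from +/+ mice and from mice labelled Abca1 +/-, all of mixed C57BL6/J and 129/SvJ background, with the livers frozen before RNA was isolated. ES cells made up 4 groups of 3 arrays: Abca1 +/-, its +/+ parent ESVJ, Cdk4 +/-, and E14, the +/+ line given as the Cdk4 +/- control. The Abca1 +/- and ESVJ cells grew on irradiated feeder cells that were then removed, whereas E14 and Cdk4 +/- are feeder-independent. The kind of mutation, the number of clones behind each mutant line and the age, sex, feeding and time of day of the mice were not stated in the labels. The labels do not say whether arrays of an ES group come from separate cultures, so p-values there may measure technical spread alone.

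Metallothioneins are small, cysteine-rich proteins of the cytosol that bind zinc and copper. Their genes are switched on by the zinc sensor MTF1 through metal response elements, and in liver also by glucocorticoids and by interleukin 6. The acute phase response is the programme by which hepatocytes change the proteins they secrete during inflammation, driven mainly by interleukin 6 through STAT3 and by interleukin 1 through NF-kB and C/EBP factors. Saa2 encodes a serum amyloid A that associates with high density lipoprotein, Serpina3n a serine protease inhibitor, Itih3 a heavy chain of the inter-alpha-trypsin inhibitor family, Masp1 a serine protease of the lectin pathway of complement, Hp haptoglobin, the haemoglobin scavenger, and Orm1 an orosomucoid, a plasma carrier of small molecules.

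The promoters of Mt1, Mt2 and Saa2 are shown because these genes had the highest liver differences of the metallothioneins and of the acute phase genes. Each runs from 250 bases before to 50 bases after the start that the RefSeq table of GRCm38.p6 gives. The table held a promoter for 5 of the 8 genes, Mt1, Mt2, Saa2, Serpina3n and Itih3, and none for Masp1, Hp and Orm1. Capitals in the Mt1 and Mt2 promoters, at chr8:94178839-94179138 and chr8:94172368-94172667 on the forward strand, mark the core of the metal response element, searched as TGCACNC or TGCGCNC on both strands.
Mt1: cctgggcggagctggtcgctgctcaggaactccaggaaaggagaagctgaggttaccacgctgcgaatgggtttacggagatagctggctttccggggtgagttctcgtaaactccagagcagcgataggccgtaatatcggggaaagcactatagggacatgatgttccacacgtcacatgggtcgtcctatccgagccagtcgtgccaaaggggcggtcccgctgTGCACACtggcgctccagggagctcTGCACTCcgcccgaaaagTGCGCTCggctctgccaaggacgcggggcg
Mt2: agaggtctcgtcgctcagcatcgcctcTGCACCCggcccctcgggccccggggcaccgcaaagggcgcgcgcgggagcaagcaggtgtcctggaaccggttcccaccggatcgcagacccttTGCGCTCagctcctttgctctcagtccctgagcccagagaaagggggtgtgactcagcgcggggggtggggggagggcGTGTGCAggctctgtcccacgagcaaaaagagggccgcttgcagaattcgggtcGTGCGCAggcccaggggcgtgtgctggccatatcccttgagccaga
Capitals in the Saa2 promoter, at chr7:46751583-46751882 on the forward strand, mark a C/EBP motif, searched as TTGCNNAA on both strands.
Saa2: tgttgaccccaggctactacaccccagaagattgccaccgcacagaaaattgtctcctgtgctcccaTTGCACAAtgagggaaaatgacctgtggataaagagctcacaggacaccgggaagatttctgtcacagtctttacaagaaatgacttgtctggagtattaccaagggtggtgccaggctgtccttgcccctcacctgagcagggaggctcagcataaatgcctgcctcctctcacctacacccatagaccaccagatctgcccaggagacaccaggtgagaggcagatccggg
The Mt1 window held 3 metal response element cores, at 23 bases upstream and 3 and 21 bases downstream of the start, and the Mt2 window held 4, at 223, 128 and 50 bases upstream and 5 bases downstream. At least 1 core was found in 25.7% of the 32851 promoters in the table, at least 3 in 1.97% and at least 4 in 0.517%. The C/EBP match of Saa2 lay 183 bases upstream of its start, the Mt2 window held another 12 bases upstream, and 10.8% of all promoters held such a motif. An NF-kB motif, searched as GGG, any 5 bases and CC on both strands, was found in the Saa2, Serpina3n, Itih3 and Mt1 windows and in 50.8% of all promoters, and the Serpina3n and Mt1 matches overlap in pairs. No STAT motif, searched as TTCNNNGAA on both strands, was found in the 5 windows, and 8.30% of all promoters held it. The Saa1 and Saa2 promoters are identical at 287 of 301 aligned positions (95.3%), and the transcripts of both genes are also closely alike, so the Saa2 probe sets may read both.

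A check of the arrays came before the comparisons, and 1 liver array stood apart. In the liver labelled Abca1 +/- replicate 1, the probe sets at the 3' end gave 4.10 times the signal of those at the 5' end for Gapdh and 8.23 times for beta-actin. In the other 15 arrays these ratios lay between 0.801 and 1.19 for Gapdh and between 1.04 and 2.14 for beta-actin. The log2 signals of this array correlated with those of the other livers at r = 0.900 to 0.937, while the other 3 livers correlated with each other at r = 0.948 to 0.968. Its part in the results was not tested. The fitted difference of each of the 8 genes is therefore also given without it, and lists of other genes are counted in each labelled liver. A fit without it leaves 1 labelled liver, so its p-values do not measure the spread between labelled livers and are not given. Neither probe set of Abca1 passed the test in liver. Abca1 signal from the brighter probe set was 327 and 301 in the +/+ livers and 699 and 555 in the livers labelled Abca1 +/-, and from the dimmer one 295, 140, 41.5 and 161 in the same order, so the transcript gives no check of the labels. The hepatocyte markers, albumin among them, were present in all 4 livers with a summed signal of 236713 to 291660, and 10 of 11 ES cell markers stayed below 100 in every liver.

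**Figure D1:**
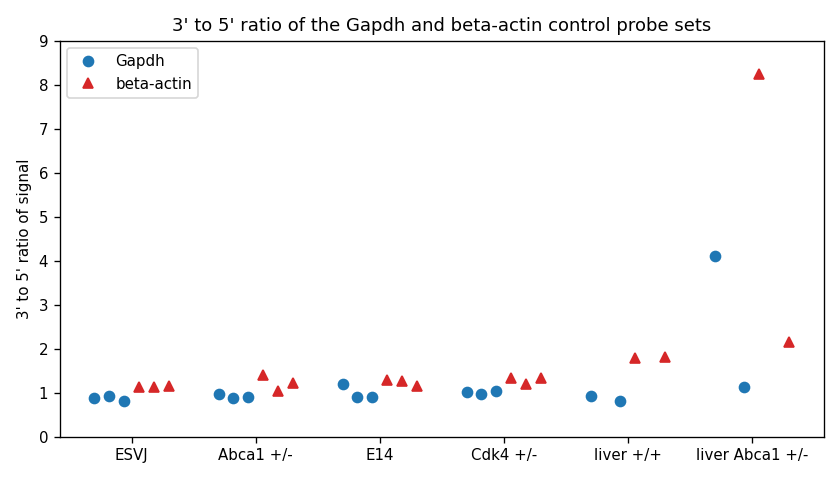
Ratio of the signal at the 3' end to that at the 5' end (y axis, no unit) for the Gapdh and beta-actin control probe sets, 1 point per array, by group (x axis). The liver labelled Abca1 +/- replicate 1 is at 4.10 and 8.23, and all other arrays are at or below 2.14.

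The first comparison asked how the genes differ between livers labelled Abca1 +/- and +/+ livers. Signals are MAS5 intensities rescaled to the same trimmed mean of 500 in every array. Differences are on the scale of log2(signal + 32), and the folds given for a single liver are set against the mean of the 2 +/+ livers on that scale. "Passed" means an adjusted p under 0.05 in limma over all 7160 probe sets tested in liver. In whole liver, fewer cells of a type and less RNA per cell cannot be told apart. Both metallothionein probe sets, both Saa2 probe sets and those of Serpina3n, Itih3 and Masp1 were higher in both livers labelled Abca1 +/- than in either +/+ liver, that is 7 of 9, against 30.3% of all probe sets. Orm1 was lower in both, as were 21.4% of all probe sets, and Hp overlapped. None of the 9 passed, and 0.0140% of all probe sets did. At an unadjusted p under 0.05, 7 of 9 were higher, against 11.8% of all, and none was lower, against 6.68%. Of the 9, 7 of 9 had a fitted difference of at least 2-fold upward, against 9.54%. The median difference of the 8 genes was 2.06, beside 0.11 over all probe sets tested. The genes were chosen with such results in view, so these counts describe them and are no independent support.

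**Figure D2:**
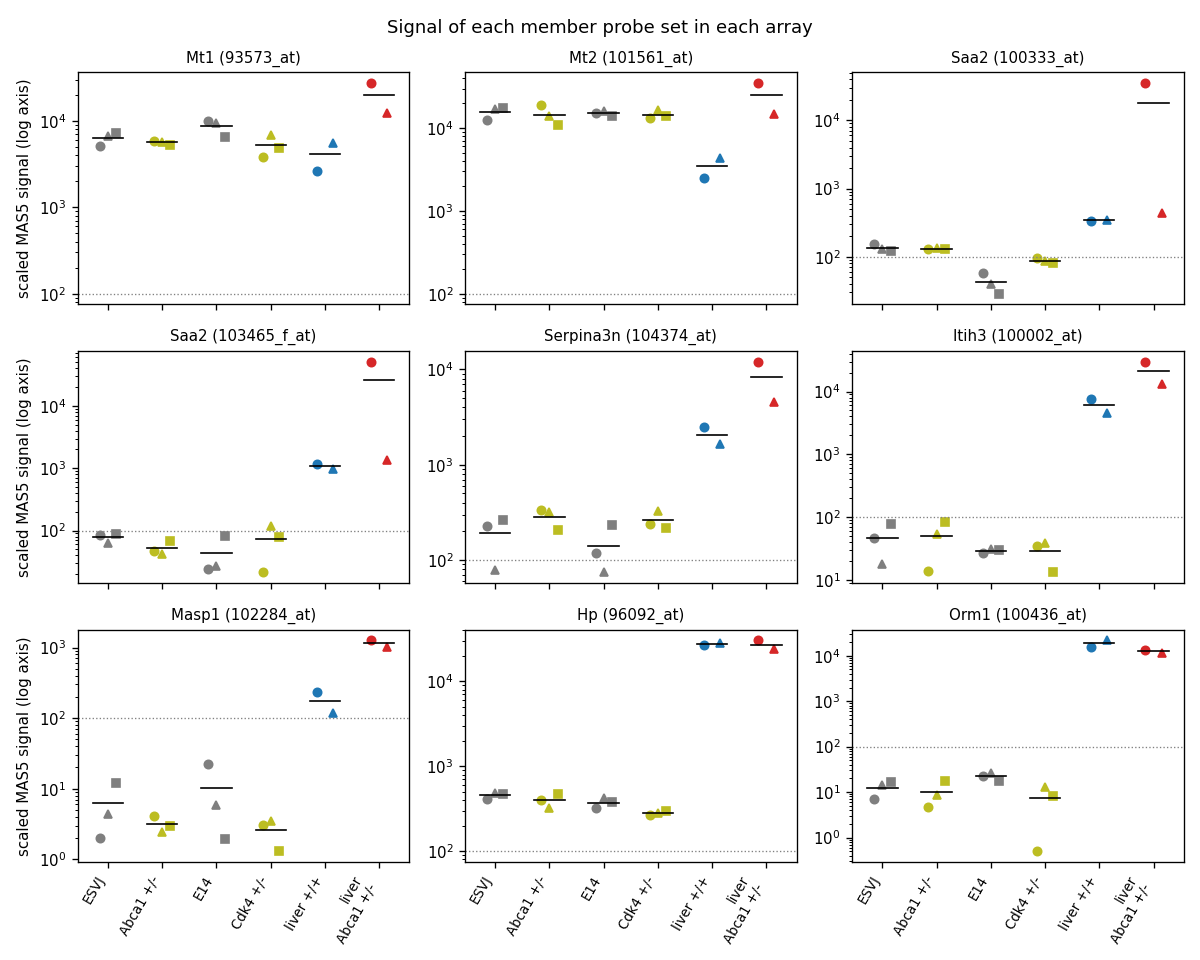
Scaled MAS5 signal (y axis, log scale, 1 panel per probe set) in each array by group (x axis), with each point an array, the bar the group mean and the dotted line the signal of 100 used as the filter. The 2 livers labelled Abca1 +/- lie above both +/+ livers in the 7 panels of Mt1, Mt2, Saa2, Serpina3n, Itih3 and Masp1, and Saa2 is high in 1 of them alone.

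Mt2 had the clearer difference of the metallothioneins. Its signal was 2508 and 4387 in the +/+ livers and 35119 and 14990 in the livers labelled Abca1 +/-. The groups did not overlap, and the lower of the labelled livers was still more than 3 times the higher +/+ liver. Replicate 1 was 10.5-fold and replicate 2 was 4.48-fold above the +/+ mean. The fitted log2 difference was 2.78 (SE 0.46, 95% interval 1.76 to 3.80, limma adjusted p = 0.101). Without replicate 1 of the labelled livers it was 2.16.

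Mt1 followed the same order of livers. Its signal was 2642 and 5514 in the +/+ livers and 27377 and 12354 in the livers labelled Abca1 +/-. It was lowest in +/+ replicate 1 and highest in labelled replicate 1, at 7.12-fold and, in replicate 2, 3.22-fold over the +/+ mean. The fitted difference was 2.26 (SE 0.47, 95% interval 1.21 to 3.31, adjusted p = 0.106), and 1.69 without labelled replicate 1. Its +/+ livers differed from each other by at least 2-fold, as did the signals of Masp1, though those of Masp1 no longer did with the pseudocount of 32 added.

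Saa2 behaved otherwise. Its unsuffixed probe set read 338 and 350 in the +/+ livers, 35367 in labelled replicate 1 and 433 in labelled replicate 2. Replicate 1 was 94.2-fold and replicate 2 was 1.24-fold above the +/+ mean, so almost all of the difference lay in 1 liver. Its family probe set, whose suffix in the file marks probes shared with related transcripts, read 1180 and 964 in the +/+ livers, 51423 in labelled replicate 1 and 1352 in labelled replicate 2. The fold over the +/+ mean was 46.8 in replicate 1 and 1.26 in replicate 2. Among all 7160 probe sets these were ranks 1 and 2 for the difference between the labelled livers, at log2 differences of 6.25 and 5.22.

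The group difference of Saa2 was wide for the same reason. It was 3.43 for the unsuffixed probe set (SE 1.44, 95% interval 0.22 to 6.65, adjusted p = 0.248) and 2.94 for the family probe set (SE 1.22, adjusted p = 0.242). Without labelled replicate 1 the differences were 0.31 and 0.33. Without labelled replicate 2 the unsuffixed probe set gave 6.56. Each of these fits leaves 1 labelled liver, assumed to vary like the +/+ livers, so no p is given.

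Serpina3n and Itih3 had smaller fitted differences than the metallothioneins and Saa2. Serpina3n signal was 2467 and 1653 in the +/+ livers and 12045 and 4535 in the livers labelled Abca1 +/-. The labelled livers stood 5.89-fold and 2.23-fold above the +/+ mean. The fitted difference was 1.86 (SE 0.47, 95% interval 0.81 to 2.90, adjusted p = 0.120), and 1.15 without labelled replicate 1. Itih3, whose protein links to hyaluronan in the extracellular matrix, had a signal of 7683 and 4569 in the +/+ livers and 29923 and 13245 in the labelled ones. Its folds were 5.03 and 2.23, and its fitted difference was 1.74 (SE 0.44, adjusted p = 0.121). Without labelled replicate 1 it was 1.16. In both genes the groups did not overlap, and labelled replicate 1 was more than 2 times replicate 2.

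Masp1 had the smallest p of the 9 probe sets and was the gene in which the labelled livers were most alike among those that were higher. Its signal was 238 and 117 in the +/+ livers and 1263.5 and 1023 in the livers labelled Abca1 +/-. Replicate 1 was 6.46-fold and replicate 2 was 5.26-fold above the +/+ mean. The fitted difference was 2.54 (SE 0.38, 95% interval 1.69 to 3.39, adjusted p = 0.101), and 2.39 without labelled replicate 1. The difference over all 4 livers did not pass.

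The plasma carriers differed from the rest. Hp signal was 26896 and 28573 in the +/+ livers and 30330.5 and 23699 in the livers labelled Abca1 +/-. The labelled livers lay on either side of the +/+ livers. The fitted difference was -0.05 (SE 0.32, 95% interval -0.76 to 0.66, adjusted p = 0.953), or -0.23 without labelled replicate 1. Orm1 signal was 15950 and 21777 in the +/+ livers and 13693 and 11427 in the labelled ones. Its groups did not overlap, with a fitted difference of -0.57 (SE 0.33, 95% interval -1.32 to 0.17, adjusted p = 0.382), or -0.70 without labelled replicate 1. The interval of Hp excludes a 2-fold difference either way, and that of Orm1 does not exclude a 2-fold lower signal.

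**Figure D3:**
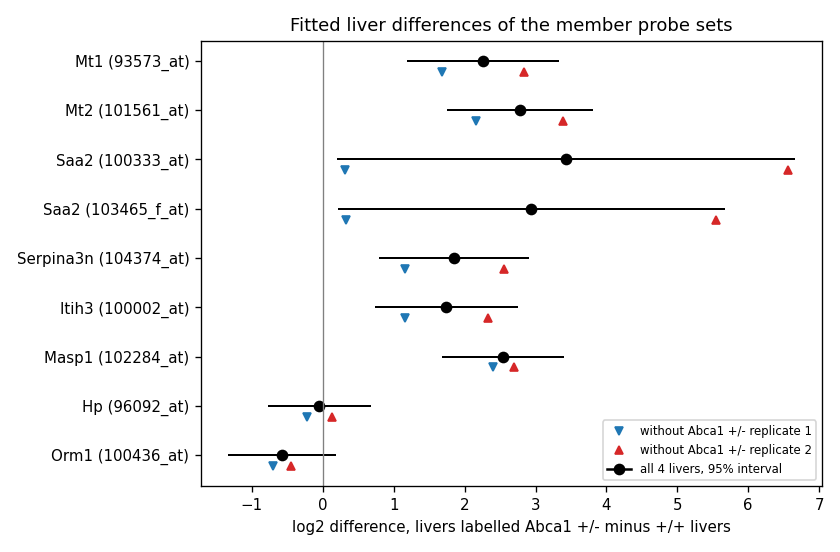
Fitted log2 difference (x axis) between livers labelled Abca1 +/- and +/+ livers for each probe set (y axis), with black points and 95% intervals from all 4 livers and triangles for fits that leave out 1 labelled liver. For Saa2 the value goes from 6.56 with labelled replicate 1 alone to 0.31 with replicate 2 alone, while for Masp1 it goes from 2.69 to 2.39.

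Taken liver by liver, 7 of 9 probe sets were at least 2-fold above the +/+ mean in labelled replicate 1, against 17.0% of all probe sets. In labelled replicate 2, 5 of 9 were, those of Mt1, Mt2, Serpina3n, Itih3 and Masp1, against 6.22% of all. Labelled replicate 1 was at least 2-fold above labelled replicate 2 in 6 of 9, against 9.86% of all, and the 3 that were not are Masp1, Hp and Orm1. Labelled replicate 2 thus had high metallothioneins, Serpina3n, Itih3 and Masp1 with Saa2 near its +/+ level, and its 3' to 5' ratios were 1.13 for Gapdh and 2.14 for beta-actin, against 0.815 and 0.919, and 1.78 and 1.81, in the +/+ livers.

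**Figure D4:**
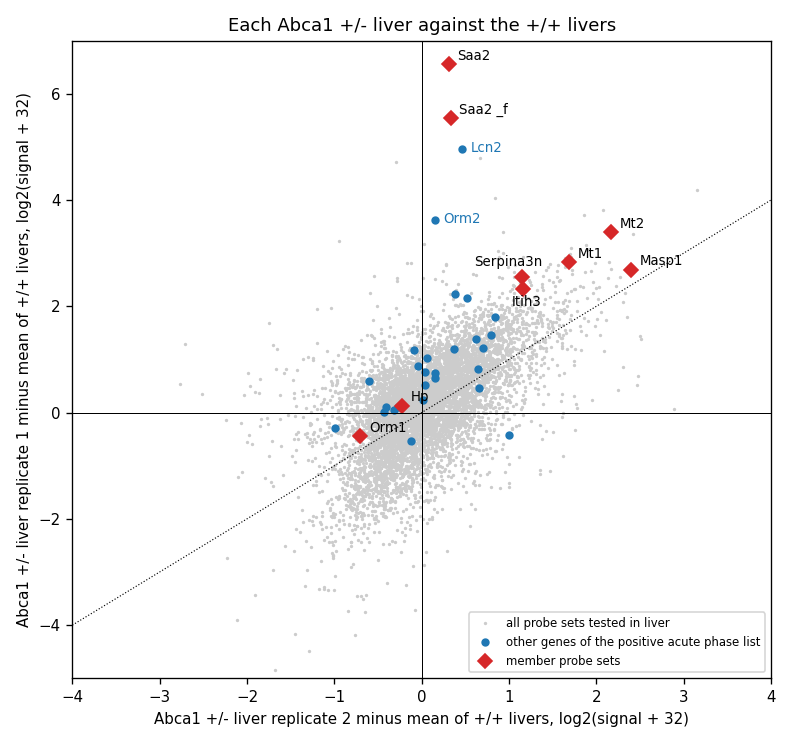
Difference from the mean of the +/+ livers on the log2(signal + 32) scale in labelled replicate 2 (x axis) and labelled replicate 1 (y axis), with each point a probe set, the dotted line marking equal values, and the genes examined as diamonds. Saa2, with Lcn2 and Orm2 of the wider acute phase list, is high on the y axis only, while Mt1, Mt2 and Masp1 are high on both.

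Some other acute phase genes were, like Saa2, high in labelled replicate 1 alone. Of 27 further genes that rise in the acute phase and were tested, none passed. At an unadjusted p under 0.05, 8 were higher and 0 lower, against 11.8% and 6.68% of all probe sets. Il1rn among them, with a +/+ mean of 88.1, reached the filter through the labelled livers, which fixed its direction. The median difference of the 27 was 0.45, beside 0.11 over all. In labelled replicate 1, 11 of the 27 were at least 2-fold above the +/+ mean, against 17.0% of all. In labelled replicate 2, 1 of the 27 was, against 6.22%. That gene is Saa4, which went the other way, at 998 and 474 in the +/+ livers, 508 in labelled replicate 1 and 1417 in labelled replicate 2. Lcn2, an iron-carrier binding protein, read 371 and 128 in the +/+ livers, 7877 in labelled replicate 1 and 318 in labelled replicate 2. Orm2, a paralogue of Orm1, read 490, 434, 6030 and 515 in the same order. Both were thus high in 1 liver alone, and neither group difference passed (2.71, adjusted p = 0.233, for Lcn2 and 1.88, adjusted p = 0.271, for Orm2). Saa3, the serum amyloid A made mostly outside hepatocytes, did not follow Saa2, at 451 and 1675 in the +/+ livers and 1338 and 566 in the labelled ones. Lrg1, a leucine-rich glycoprotein of plasma, read 5180, 3849, 20129 and 6406, and Lbp, which hands lipopolysaccharide to CD14, read 1442, 1347, 6655 and 1821. Their folds over the +/+ mean were 4.48 and 4.69 in labelled replicate 1 and 1.43 and 1.30 in replicate 2.

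Of 17 genes that fall in the acute phase, none passed, and at an unadjusted p under 0.05, 4 were higher and 1 lower (11.8% and 6.68% of all probe sets). The median difference was -0.12. At least 2-fold higher were 4 in labelled replicate 1 and 2 in replicate 2, against 17.0% and 6.22% of all. Mug2, a murinoglobulin, had the smallest p of them, with signals of 4065 and 3185 in the +/+ livers and 6726 and 9303 in the labelled ones (log2 difference 1.13, adjusted p = 0.157). The gene that was lower is Apoa4, an apolipoprotein, at 18852 and 14977 against 9578 and 9328 (-0.83, adjusted p = 0.223), and so at 0.571 and 0.556 times the +/+ mean in the labelled livers. Albumin and transthyretin, 2 classic negative reactants, differed by -0.18 (adjusted p = 0.824) and -0.27 (adjusted p = 0.717). Albumin overlapped between the groups. Transthyretin was lower in both labelled livers, as were 21.4% of all probe sets, at 13380 and 13210 against 12877 and 9463. In labelled replicate 1 alone albumin and transthyretin were at 1.03 and 0.969 times the +/+ mean.

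The relatives of Itih3 and Masp1 went both ways. Of 12 further genes of the inter-alpha-trypsin inhibitor family and the lectin pathway, 7 had a difference above 0, a share near the 56.9% of all probe sets. None passed, 5 were higher and 0 lower at an unadjusted p under 0.05 (11.8% and 6.68% of all), and the median was 0.69. Of those higher, Itih4, Mbl2 and Serping1 are also counted above among the genes that rise in the acute phase, and Itih1 among those that fall. In labelled replicate 1, 5 of the 12 were at least 2-fold higher, against 17.0% of all, and in replicate 2, 0 were, against 6.22%. The heavy chain genes Itih4, Itih1 and Itih2 differed by 1.31 (adjusted p = 0.166), 0.99 (adjusted p = 0.180) and 0.57 (adjusted p = 0.374). Ambp, which encodes the light chain bikunin, differed by -0.16 (adjusted p = 0.844), and Masp2, the protease that cleaves C4 and C2, by -0.02 (adjusted p = 0.988). The mannose-binding lectins that carry the MASP proteases differed by 0.96 for Mbl2 (adjusted p = 0.212) and -0.33 for Mbl1 (adjusted p = 0.650).

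Metal handling genes had a median difference close to that of all probe sets. Of 20 further genes tested, none passed, 1 was higher and 1 lower at an unadjusted p under 0.05 (11.8% and 6.68% of all), and the median was 0.14, beside 0.11 over all. In labelled replicate 1, 4 were at least 2-fold higher, against 17.0% of all, and in replicate 2, 2 were, against 6.22%. The higher gene is Slc30a1, the zinc exporter of the plasma membrane, at 75.3 and 30.0 in the +/+ livers and 211 and 135 in the labelled ones (1.30, adjusted p = 0.227). With a +/+ mean of 52.6 it reached the filter through the labelled livers, which fixed its direction. The 2 genes counted in replicate 2 are Slc30a1 and Atp7b, which reached the filter in the same way with a +/+ mean of 73.1. Atox1, the copper chaperone, was lower, at 5857 and 7461 against 2216 and 3405 (-1.26, adjusted p = 0.139). Mtf1, the zinc sensor itself, differed by -0.56 (adjusted p = 0.456).

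Among 26 signalling genes of the acute phase, none passed, and 3 were higher and 1 lower at an unadjusted p under 0.05, shares no greater than the 11.8% and 6.68% of all probe sets. The median was 0.46. At least 2-fold higher were 9 in labelled replicate 1 and 2 in replicate 2, against 17.0% and 6.22% of all. Cebpb, a C/EBP factor induced by interleukin 6, read 1072 and 867 in the +/+ livers and 3238 and 3710 in the labelled ones (1.81, SE 0.33, adjusted p = 0.101), and so was high in both. Cebpa, the C/EBP factor of resting liver, read 4850, 4321, 13174 and 7933 (1.15, adjusted p = 0.165). The gene that was lower is Hnf4a, a nuclear receptor of hepatocyte identity, at 867 and 569 against 170 and 421 (-1.28, adjusted p = 0.179). Socs3, the feedback inhibitor of STAT3, read 122, 162, 730 and 138, high in labelled replicate 1 alone (1.06, adjusted p = 0.375).

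Lists of other influences on metallothionein and acute phase genes were read in the same way, and none of their genes passed. At an unadjusted p under 0.05 (11.8% of all probe sets higher, 6.68% lower), glucocorticoid response genes had 3 of 18 higher and 1 lower, fasting genes 2 of 16 higher and 2 lower, and circadian output genes 3 of 14 higher and 0 lower. Their medians were 0.39, 0.44 and 0.36. The fasting list pools genes of fatty acid oxidation and of lipid synthesis, and the circadian list activators and repressors of the clock. The counts and medians of these 2 lists therefore give no direction of either influence. At least 2-fold higher in labelled replicates 1 and 2 were 6 and 4, 5 and 2, and 3 and 3 genes. Of all probe sets, 17.0% and 6.22% were. Per1, a clock gene that glucocorticoids also induce, read 59.7 and 44.6 in the +/+ livers and 209 and 195 in the labelled ones (1.48, adjusted p = 0.164). Per1 is counted as higher in the glucocorticoid and the circadian list. With a +/+ mean of 52.1 it reached the filter through the labelled livers, which fixed its direction. Bhlhe40, a clock repressor, read 329 and 212 against 899 and 876 (1.63, adjusted p = 0.108), and Cpt1a, the entry enzyme of fatty acid oxidation, 1612 and 1213 against 6067 and 3379 (1.67, adjusted p = 0.113). Srebf1, a regulator of lipid synthesis, read 2449 and 1827 against 6946 and 3592 (1.23, adjusted p = 0.172). Angptl4, an inhibitor of lipoprotein lipase that stands in the glucocorticoid and the fasting list, was lower at 1847 and 1743 against 503 and 1318 (-1.10, adjusted p = 0.227), and so was Txnip, which binds thioredoxin, of the fasting list (-0.84, adjusted p = 0.235). Among 6 sex-biased liver genes 0 were higher and 1 lower at an unadjusted p under 0.05. Hsd3b5, a male-biased enzyme, read 474 and 2113 against 125 and 190 (-2.48, adjusted p = 0.113), and Xist, the RNA of the inactive X chromosome, read 144, 76.5, 113 and 992. The part of feeding, time of day and sex in the liver differences was not tested.

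The summed signals of macrophage, neutrophil and lymphocyte markers were highest in labelled replicate 1. The summed signal of 12 Kupffer cell and macrophage markers was 6519 and 7867 in the +/+ livers, 12965 in labelled replicate 1 and 8085 in labelled replicate 2. That of 12 neutrophil markers was 1992, 2589, 11239 and 1718, of which Lcn2, also an acute phase gene of hepatocytes, made up 7877 in labelled replicate 1. S100a8 and S100a9, the calprotectin subunits, were high there as well, at 45.7, 127, 514 and 113 and at 64.9, 142, 329 and 94.2. S100a8, with a +/+ mean of 86.3, reached the filter of 100 through the labelled livers. The granule genes Ngp, Mpo, Mmp9 and Mmp8 were below 100 in all 4 livers. The sum of 18 lymphocyte markers was 2911, 4226, 7959 and 4045, with Ptprc and Cd3e among 8 genes below 100 in all livers. That of 15 stellate cell and fibroblast markers lay between 13160 and 15218. Erythroid markers summed to 16504, 18380, 18854 and 15117, and endothelial markers to 2382, 3353, 4177 and 3769. Lyz2 of the macrophage list was lowest in labelled replicate 1, at 1006, 1621, 857 and 1103. Ms4a1 of the lymphocyte list was lower in both labelled livers than in either +/+ liver, at 374, 336, 252 and 255. Of the 8 tested genes of that list, 7 had a difference above 0, against 56.9% of all probe sets. None of the marker genes passed. Of those with the smallest p in their lists, Csf1r differed by 1.84 (adjusted p = 0.114) and Cd5l by 0.73 (0.277) among macrophage markers, Cd74 by 1.37 (0.146) and H2-Aa by 0.90 (0.337) among lymphocyte markers, and Cdh5 by 1.62 (0.125) and Kdr by 0.45 (0.555) among endothelial markers. S100a8 differed by 1.34 (0.288) among neutrophil markers, Timp1 by -1.08 (0.167) and Acta2 by 0.63 (0.467) among stellate cell markers, Alas2 by -0.16 (0.846) and Klf1 by 0.11 (0.910) among erythroid markers, Cftr by -0.15 (0.903) for cholangiocytes and Fgf4 by -0.80 (0.323) for ES cells. Among hepatocyte markers, Apob, the main protein of very low density lipoprotein, had the smallest p, at 789 and 715 in the +/+ livers and 4555 and 3749 in the labelled ones (2.41, adjusted p = 0.098). The part of these cells in the liver differences was not tested.

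The genes most like Mt1 over the 4 livers were found by the distance between log2 profiles, each centred on its own mean, among 5398 genes. The nearest were Otud4 (0.21), Rere (0.24), Mt2 (0.28), Med12 (0.28) and Pdcd4 (0.31). Nearest to the mean profile of the 6 acute phase genes, among 5399 genes, were Hcfc1 (0.06), Zfpm1 (0.07), Lrg1 (0.09), Sbno1 (0.09) and Lrp1 (0.09). Serpina3n and Itih3 were at ranks 81 and 85 of that order, and Saa2 at rank 5200. These distances rest on 4 arrays and describe them only, and the genes near the acute phase mean share its high value in labelled replicate 1, the array with the high 3' to 5' ratios.

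The ES groups give the level of the same probe sets outside liver. Of the 9 probe sets, 4 reached a mean signal of 100 over the 12 ES arrays and were tested there, those of Mt1, Mt2, Serpina3n and Hp. The other 5 were not, and of these the unsuffixed Saa2 probe set lay closest to the filter, with a range of 28.7 to 152. Signals of the remaining probe sets in ES cells were 21.2 to 119 for the family probe set of Saa2, 13.0 to 83.7 for Itih3, 1.30 to 22.6 for Masp1 and 0.500 to 25.7 for Orm1.

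Both metallothioneins were strongly expressed in ES cells. Mt2 signal was 15685 ± 2879 in ESVJ, 14599 ± 3965 in Abca1 +/-, 15178 ± 1058 in E14 and 14539 ± 1777 in Cdk4 +/- cells (SD, n = 3 each). The means of the 4 groups differed by less than the SD of ESVJ, Abca1 +/- or Cdk4 +/- cells, though not by less than that of E14. Mt1 signal was 6293 ± 1095 in ESVJ, 5610 ± 313 in Abca1 +/-, 8614 ± 1904 in E14 and 5187 ± 1522 in Cdk4 +/- cells.

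The Abca1 mutation was compared in ES cells with the same test as in liver. None of the 4 probe sets passed, and 0.0272% of the 7349 probe sets tested did. The log2 difference between Abca1 +/- and ESVJ was -0.12 for Mt2 (95% interval -0.51 to 0.27), -0.15 for Mt1 (-0.58 to 0.28), 0.61 for Serpina3n (-0.16 to 1.37) and -0.19 for Hp (-0.52 to 0.15). None of the 4 had an unadjusted p under 0.05. For both metallothioneins the intervals exclude a difference as large as the fitted liver difference. Serpina3n signal was 227, 79.4 and 266 in ESVJ and 335, 318 and 205 in Abca1 +/- cells, and the groups overlapped.

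Mt1 was the only one of the 4 to pass in the Cdk4 comparison. Its signal was 9911, 9505 and 6428 in E14 and 3848, 6843 and 4871 in Cdk4 +/- cells, and the highest mutant array was above the lowest control array. It fell by 0.74 on the log2 scale (SE 0.20, adjusted p = 0.0486), and 2.33% of all probe sets passed downward. The call was close to the threshold and was lost when any of E14 replicates 1 and 2 and Cdk4 +/- replicates 1 and 3 was left out, at adjusted p = 0.145 to 0.208, and when only the 6 arrays compared were fitted (adjusted p = 0.105). Mt2 differed by -0.07 (adjusted p = 0.886), Serpina3n by 0.84 (adjusted p = 0.198) and Hp by -0.36 (adjusted p = 0.202). The unadjusted limma p was 0.0340 for Serpina3n, whose groups overlapped, and 0.0356 for Hp, against 20.8% of all probe sets under 0.05. Hp was lower in every Cdk4 +/- array than in any E14 array, as were 11.9% of all probe sets.

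Between the +/+ lines E14 and ESVJ, which differ in culture as well as in origin, none of the 4 passed, while 42.6% of all probe sets did. The difference was 0.44 for Mt1 (unadjusted p = 0.0465, adjusted p = 0.0932), -0.03 for Mt2 (adjusted p = 0.902), -0.34 for Serpina3n (adjusted p = 0.470) and -0.27 for Hp (adjusted p = 0.187). Under quantile normalization Mt1 and Mt2 passed, with differences of 0.62 (adjusted p = 0.0152) and 0.45 (adjusted p = 0.0019). The unsuffixed Saa2 probe set, under the filter and so not tested, read 152, 128 and 123 in ESVJ, 58.1, 39.3 and 28.7 in E14 and 81.8, 87.0 and 95.2 in Cdk4 +/- cells.

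Liver and ES cells were compared between the +/+ livers and ESVJ, in a fit of 10 arrays and 7883 probe sets whose median difference was -0.38, or -0.09 under quantile normalization. Orm1, Itih3, Masp1 and the family probe set of Saa2 had ESVJ signals below 100 and entered the fit through the livers, which fixes the direction, so their signals are given with no test. Orm1 read 7.20 to 16.3 in ESVJ and 15950 and 21777 in the +/+ livers, and Itih3 17.8 to 76.3 against 7683 and 4569. Masp1 read 2.00 to 12.1 against 238 and 117, and the family probe set of Saa2 63.5 to 88.8 against 1180 and 964. Among the other 5 probe sets, Hp was higher in liver by 5.84 (adjusted p = 6.8e-11) and Serpina3n by 3.32 (adjusted p = 2.5e-05), and 23.5% of all probe sets passed upward. The unsuffixed Saa2 probe set did not pass (1.18, adjusted p = 0.390). Mt2 was lower in liver, where 43.9% of all passed downward, by a log2 difference of -2.21 (SE 0.37, adjusted p = 1.4e-04). Mt1 differed by -0.70 (adjusted p = 0.0902), or -1.17 under quantile normalization (adjusted p = 0.0043). The 2 +/+ livers were thus below the 3 ESVJ arrays in Mt2, while the labelled livers, at 35119 and 14990, lay above or within the ESVJ range of 12391 to 17717.

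The difference between the Abca1 comparison in liver and in ES cells was tested as an interaction. Among the 5 probe sets with a mean signal above 100 in both ES groups it passed upward for Mt2 (2.90, SE 0.52, adjusted p = 0.0237) and Mt1 (2.41, SE 0.49, adjusted p = 0.0334), and 2.02% of all probe sets passed upward. It did not pass for the unsuffixed Saa2 probe set (3.45, adjusted p = 0.240), Serpina3n (1.25, adjusted p = 0.268) and Hp (0.14, adjusted p = 0.814). Masp1, the family probe set of Saa2, Itih3 and Orm1 entered this fit through their liver signals, so their interaction restates the liver difference. Of these Masp1 passed (2.65, SE 0.43, adjusted p = 0.0205), with mean ES signals of 6.19 in ESVJ and 3.21 in Abca1 +/- cells, though its liver difference alone did not pass. The others did not pass, at 3.35 (adjusted p = 0.185) for Saa2, 1.71 (adjusted p = 0.144) for Itih3 and -0.49 (adjusted p = 0.388) for Orm1. The spread in this fit comes from 6 ES and 4 liver arrays together. Leaving out a labelled liver leaves 1 liver in its group, so calls from such fits are not counted. Of all 9 probe sets, none passed without ES Abca1 +/- replicate 2 or 3, or ESVJ replicate 1 or 3. Without ESVJ replicate 2, 1 did. Masp1 did not pass with a pseudocount of 1 (adjusted p = 0.0876), nor did Mt1 with no filter on low signal (adjusted p = 0.0521).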

How the data were processed

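RNA of 16 mouse samples was measured on Affymetrix U74Av2 arrays. Per the labels, the authors ran MAS5.0 with default settings, and the deposited values are signals, a linear intensity, scaled by the authors to a 2% trimmed mean of 1501 to 1502 in every array. The file has no detection calls. The array annotation gives a single gene for 10855 of 12488 probe sets, more than 1 for 396 and none for 1237. A gene of a list is read by its probe set of highest mean signal, and members by every probe set.

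From the deposited intensities, signals were rescaled to a trimmed mean of 500, and log2(signal + 32) was taken, which understates differences at low signal. Tests used limma 3.58.1 in R 4.3.3 (intensity trend) on probe sets whose mean signal in the fitted arrays reached 100, with Benjamini-Hochberg adjustment over all of these. The livers (2 residual degrees of freedom), the ES arrays (8) and the Abca1 and ESVJ ES arrays with the livers were fitted separately. The median standard error of a log2 difference was 0.38 in liver and 0.17 in ES cells, and the number of arrays limits the precision. The scripts were tested on simulated data.

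Groups come from the labels. Replicates are numbered in the order of the sample list. The members, lists, motifs and tests were chosen with earlier results of these data known. The rule for named genes took all members, the 2 tested genes of smallest p of each list (members included) and the 5 nearest profiles; all other genes named were chosen after their values were seen. Other settings tried were quantile normalization, the scale as deposited, a pseudocount of 1 or 100, a higher filter or none, no trend, no cross-hybridising probe sets, other sets of arrays in a fit, and leaving out each array.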

Additional observations from a re-analysis of the deposited data

Results flagged for a closer look

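The difference between livers labelled Abca1 +/- and +/+ livers was larger than the difference between Abca1 +/- and ESVJ ES cells for 3 probe sets, in a limma interaction test adjusted over 7883 probe sets. The log2 value of the interaction was 2.41 for Mt1 (adjusted p = 0.0334) and 2.90 for Mt2 (adjusted p = 0.0237), with both livers labelled Abca1 +/- above both +/+ livers and overlapping signals in the ES groups. It was 2.65 for Masp1 (adjusted p = 0.0205), but Masp1 had mean ES signals of 6.19 and 3.21 and was not tested in ES cells. Its value restates a liver difference that did not pass by itself. The calls of Mt1, Mt2 and Masp1 were all lost when any of several single ES arrays was left out.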

How the results depend on the processing

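No paired analysis was possible because the labels give the arrays no replicate numbers. In liver, 0 of 9 probe sets passed, and 7 passed with all 16 arrays in 1 fit. That fit pools the spread of ES and liver arrays, and the median standard error was 0.17 in ES cells and 0.38 in liver. The 7 calls thus do not rest on the spread between livers alone. Leaving out a liver array leaves 1 liver in its group, so calls from such fits are not counted. The liver difference of Hp was 0.18 under quantile normalization and -0.23 to 0.13 with an array left out. In the Cdk4 comparison 1 of 4 passed, and 0 passed on the deposited scale, with a pseudocount of 1, with no filter on low signal, with no intensity trend, with all 16 arrays in 1 fit and with only the 6 arrays compared. With an array left out 0 to 1 passed. Between E14 and ESVJ 0 of 4 passed, and 1 passed on the deposited scale, 2 under quantile normalization, 1 with no filter and 0 to 2 with an array left out. Mt2 turned to 0.45 there under quantile normalization and ranged from -0.19 to 0.064 with an array left out. Its ranges were -0.32 to 0.064 in the Abca1 ES comparison and -0.16 to 0.0015 in the Cdk4 comparison. The interaction passed for 3 of 9, and for none when any of several single ES arrays was left out. That of Hp ranged from -0.039 to 0.32 with an array left out. The cause of these changes was not tested. In the Abca1 ES comparison 0 passed under every alternative run.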
